A study of Mus musculus with 2 samples.

Results

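The interleukin 6 family genes described here are 10 of the 28625 gene symbols in the count matrices, taken by symbol: the ligand genes Il6, Lif, Osm, Il11 and Clcf1, the receptor genes Il6st, Il6ra, Lifr and Osmr, and the feedback inhibitor gene Socs3. They were measured in single cells of mouse tibialis anterior, a muscle of the lower hind leg. The injured group is 1 library of C57B/6 muscle at 12 weeks of age, taken 24 hours after barium chloride (1.2%) was injected into the muscle, a salt that kills muscle fibres and leaves the tissue to regenerate. The uninjured group is 1 control library of the same strain, age and muscle. Both treatment labels name the barium chloride, and whether the uninjured leg was injected, and how many animals gave each library, is not stated in the labels. Muscle was dissociated with protease, and RNA was counted by unique molecular identifiers (UMIs) with a droplet method that reads the 3′ ends of transcripts, so a count stands for molecules of 1 gene and levels are compared here between cells and libraries, not between genes.

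The cytokines of this family signal through gp130, the product of Il6st, which most ligands engage together with a second receptor chain. Interleukin 6 binds Il6ra, leukaemia inhibitory factor binds Lifr, and oncostatin M in the mouse uses mainly Osmr. The receptor complex activates JAK kinases and the transcription factor STAT3, and STAT3 induces Socs3, which blocks gp130 in turn. In muscle the family is known for acute inflammation after damage and for effects on satellite cells, the stem cells of the fibre, among them the quiescence signal attributed to oncostatin M.

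After filters the injured library held 4260 cells with 36692627 UMIs and the uninjured library 5139 cells with 20492665 UMIs, with a median of 7268 UMIs per cell in the injured and 3156 in the uninjured library. The lowest UMI total of a deposited barcode was 3333 in the injured and 1843 in the uninjured matrix, so the injured matrix starts at a higher depth. The libraries shared 33 barcodes. Xist had 0 UMIs in the injured and 16575 in the uninjured library, and Y-linked genes had 4456 in the injured and 0 in the uninjured library. For every gene compared here, a difference linked to sex therefore cannot be told apart from one linked to injury. Cells fell into 27 clusters, named "-like" from marker lists. Comparison was limited to the 7 classes that had 50 cells or more on both sides: monocyte- and macrophage-like (2468 injured and 86 uninjured cells), dendritic-like (253 and 58), endothelial-like (451 and 2631), fibro-adipogenic progenitor-like (FAP-like, the mesenchymal stromal cells of muscle, 407 and 800), tenocyte-like (168 and 448), pericyte- and smooth muscle-like (130 and 105) and glial-like (63 and 249). All or all but 1 of the markers of a class had at least 10 UMIs in it, except in the uninjured dendritic-like cells, where 5 of 10 did. Different clusters held most of a class in each library for monocyte- and macrophage-like, endothelial-like, FAP-like, tenocyte-like and glial-like cells, so a ratio within these classes compares unlike clusters. Injured FAP-like cells were mostly cluster 10 (396 cells) and uninjured ones clusters 5 (490), 16 (255) and 25 (55), and tenocyte-like cells were cluster 20 in the injured (157) and cluster 6 in the uninjured library (447). Injured endothelial-like cells were mostly cluster 12 (359) and uninjured ones clusters 1 (1041), 3 (816), 8 (419) and 11 (343). Ratios within clusters 11, 19 and 22, which both libraries filled with at least 40 cells each, were added after the data had been seen. Levels are given in CPM, the UMIs of a gene per 1000000 UMIs of the cells summed. The 11 FAP markers summed to 9829 CPM in injured and 66195 CPM in uninjured FAP-like cells. Tenocyte-like cells held these FAP markers at 20934 CPM in the injured and 52553 CPM in the uninjured library. In the injured library tenocyte markers summed to 279 CPM in FAP-like and 19447 CPM in tenocyte-like cells. The part of these marker shifts in the ratios of both classes was not tested. The monocyte- and macrophage-like class also held dendritic markers, summed to 627 CPM in injured and 25988 CPM in uninjured cells (0 of 10 and 3 of 10 at 0). Its neutrophil markers summed to 579 CPM in injured and 44.4 CPM in uninjured cells (0 of 9 and 6 of 9 at 0). Its endothelial markers summed to 109 CPM in injured and 1487 CPM in uninjured cells, with none at 0. The part of these markers in its ratios was not tested, but without 58 injured cells that grouped as neutrophil-like when that library was clustered alone (Osm 281 CPM, 120 UMIs), a setting chosen after the data had been seen, 2 members were higher and 2 lower, the same counts as with them. With 1 library per group no test was possible. Ratios carry exact 95% intervals that cover counting error only, and a gene counts as higher or lower where the ratio reaches 2-fold and both libraries together hold at least 20 UMIs of it in the class.

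Promoter windows of 8 of the 10 genes (all but Osm and Clcf1) were taken from a RefSeq table on GRCm38.p6, the assembly behind the mm10 build of the counts. They run from 250 bases before to 50 bases after a transcript start. Lif, Il6 and Il11 are shown because their UMIs were higher together in injured FAP-like cells, and Socs3 because it is the family's own target. Capitals mark matches, on either strand, to the AP-1 motif TGANTCA, to the NF-kappaB motif and to the STAT palindrome TTCNNNGAA.
Socs3, chr11:117969317-117969616, minus strand: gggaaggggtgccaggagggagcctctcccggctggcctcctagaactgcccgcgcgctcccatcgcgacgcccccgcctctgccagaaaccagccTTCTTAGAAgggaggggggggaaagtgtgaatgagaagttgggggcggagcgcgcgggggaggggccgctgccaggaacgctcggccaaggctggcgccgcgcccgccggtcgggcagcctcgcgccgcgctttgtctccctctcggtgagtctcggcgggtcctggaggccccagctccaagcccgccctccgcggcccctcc
Il6, chr5:30012864-30013163, plus strand: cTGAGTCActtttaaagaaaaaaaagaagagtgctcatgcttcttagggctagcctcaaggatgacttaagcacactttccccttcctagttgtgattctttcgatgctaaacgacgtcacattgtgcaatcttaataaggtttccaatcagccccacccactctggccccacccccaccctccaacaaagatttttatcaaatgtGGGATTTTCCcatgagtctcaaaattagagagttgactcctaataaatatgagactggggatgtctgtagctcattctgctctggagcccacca
Lif, chr11:4257318-4257617, plus strand: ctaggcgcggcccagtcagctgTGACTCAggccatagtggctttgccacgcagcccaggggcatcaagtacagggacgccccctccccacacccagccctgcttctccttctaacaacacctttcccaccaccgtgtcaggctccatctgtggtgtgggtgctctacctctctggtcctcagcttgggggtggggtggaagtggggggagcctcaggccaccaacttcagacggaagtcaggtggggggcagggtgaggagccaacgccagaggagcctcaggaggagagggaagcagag
Il11, chr7:4778092-4778391, minus strand: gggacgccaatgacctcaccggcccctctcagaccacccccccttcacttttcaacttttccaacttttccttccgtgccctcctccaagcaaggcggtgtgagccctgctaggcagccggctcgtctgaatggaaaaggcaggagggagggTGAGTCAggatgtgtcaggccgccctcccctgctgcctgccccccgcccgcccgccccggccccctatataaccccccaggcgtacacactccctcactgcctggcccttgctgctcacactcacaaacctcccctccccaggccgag
The Socs3 window held 1 STAT palindrome, 154 bases before the start, and no other of these 8 genes had a match, while 8.30% of all 32851 windows of this length have a match. The AP-1 motif lay 249 bases before the start of Il6, 228 before that of Lif and 98 before that of the Il11 transcript shown, and a further match lay just past the start in the Osmr window, against 7.81% of all windows with one. Another Il11 window, chr7:4782808-4783107, which is not shown, had no AP-1, NF-kappaB or STAT match. The NF-kappaB motif was found in the Il6 window, 44 bases before the start, and in 0.411% of all windows. The AP-1 and NF-kappaB motifs were chosen after the values had been seen, and a match of letters is a description of the sequence. In the mm10 annotation Osm (chr11:4236420-4241026) and Lif (chr11:4257557-4272514) lie on the same strand 16.5 kb apart with no protein-coding gene between them, and Osmr (chr15:6813577-6874969) and Lifr (chr15:7090614-7197489) likewise lie beside each other, on opposite strands.

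Ligand genes were mostly higher in injured than in uninjured cells, and receptor genes mostly lower or within 2-fold. Over the 7 classes the 10 genes made 70 pairs of gene and class, of which 50 had enough UMIs. In 17 of the 50 the injured library was at least 2-fold higher, in 11 at least 2-fold lower, and in 22 the difference was smaller. Of the 17 called pairs of a ligand gene 16 were higher, all but Il6 in dendritic-like cells, and the 16 include Osm in endothelial-like and FAP-like cells, where its level was low and myeloid markers were present as well, and 9 of the 10 called pairs of a receptor gene were lower. Lifr was lower in 5 of 7 classes, Clcf1 higher in 5 of 6 with enough UMIs, and Il6 higher in 4 and lower in 1 of 6.

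**Figure D1:**
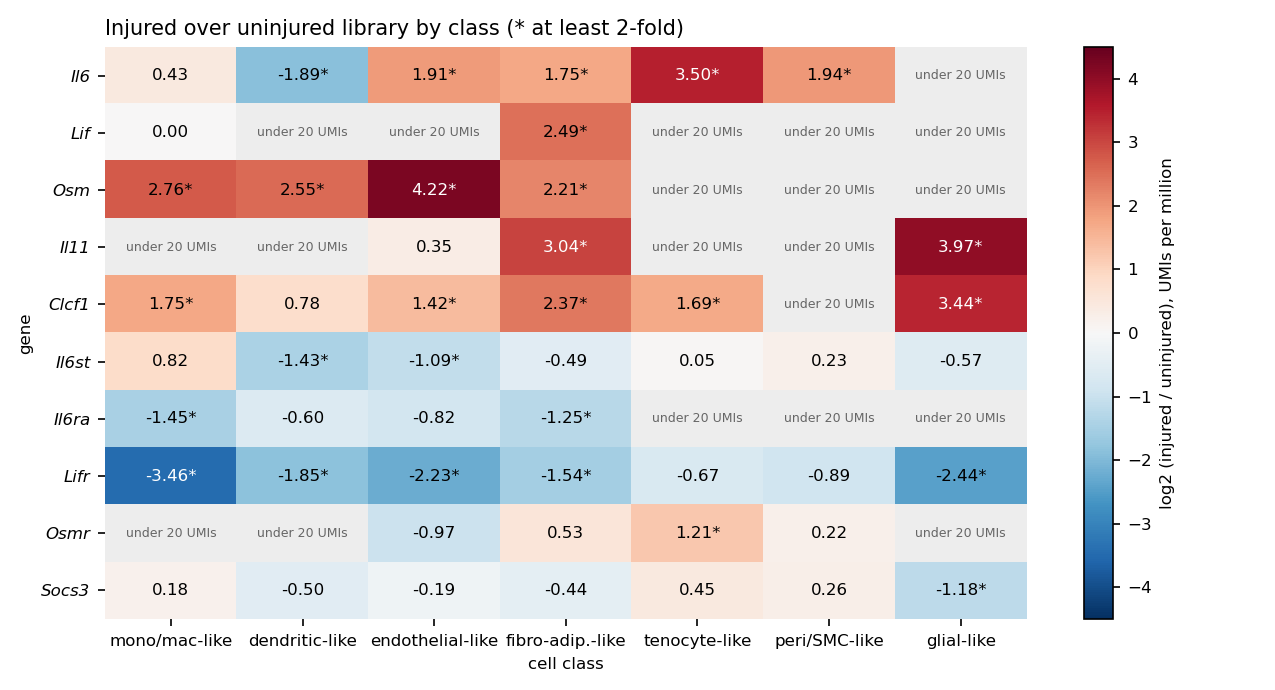
Log2 ratio of CPM, injured over uninjured library, for each gene (rows) and cell class (columns), with lower counts under 3 raised to 3, and an asterisk at 2-fold or more. Ligand genes in the upper 5 rows are mainly higher in injured cells, up to 4.22 for Osm in endothelial-like cells, and Lifr lies below 0 in every class, down to -3.46 in monocyte- and macrophage-like cells.

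These counts are read against all genes with enough UMIs. Among monocyte- and macrophage-like cells 2 of 8 measured members were higher and 2 lower, where 8.08% of 10135 genes were higher and 25.7% lower. In dendritic-like cells 1 of 7 was higher and 3 lower, against 10.5% and 11.7% of 6483 genes. Endothelial-like cells had 3 of 9 higher and 2 lower, against 10.6% and 20.4% of 11212 genes. FAP-like cells had all 10 measured, with 5 higher and 2 lower, against 14.9% and 29.0% of 11382 genes, and 1 of the 5 is Osm with 26 injured and 0 uninjured UMIs. For tenocyte-like cells 3 of 6 were higher and 0 lower, against 9.96% and 20.8% of 9707 genes. In pericyte- and smooth muscle-like cells 1 of 5 was higher and 0 lower, against 18.0% and 13.0% of 7985 genes, and in glial-like cells 2 of 5 were higher and 2 lower, against 13.0% and 26.9% of 6462 genes. The median log2 ratio of all genes lay between -0.30 and 0.14 in the 7 classes. The share of members called higher was above the share of all genes in all 7 classes, narrowly in pericyte- and smooth muscle-like cells and on few members in each, and the share called lower was near or below it outside dendritic- and glial-like cells.

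Osm, which encodes oncostatin M, a cytokine made mainly by activated myeloid cells, showed the largest difference between the whole libraries. It had 8577 UMIs in the injured library, or 234 CPM (95% Poisson interval 229 to 239), against 30 UMIs, or 1.46 CPM (0.988 to 2.09), in the uninjured library, a 159.7-fold difference (112 to 237). In the whole libraries 6 of 10 members were higher and 3 lower, where 11.9% of 14470 genes were higher and 38.7% lower, and this comparison includes the change in which cells were present. Within monocyte- and macrophage-like cells Osm stood at 408 CPM (7425 UMIs) in injured and 60.2 CPM (19 UMIs) in uninjured muscle, 6.78-fold higher (4.34 to 11.3), beside dendritic markers at 627 CPM in the injured and 25988 CPM in the uninjured cells. It was found in 75.0% of the injured cells and 12.8% of the uninjured cells at median depths of 6994.5 and 3520.5 UMIs, and in 29.4% and 5.81% after every cell was thinned to 1000 UMIs. Dendritic-like cells had 106 CPM (211 UMIs) in the injured and 18.1 CPM (5 UMIs) in the uninjured library, 5.87-fold higher (2.48 to 18.3), with all 5 uninjured UMIs in 1 cell.

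Most injured cells with Osm came from clusters with 15 uninjured cells or fewer. Cluster 2, led by Cxcl3 and Arg1, held 525.5 CPM (508 to 543), cluster 7, led by Ppbp and Ccl12, 418 CPM (397 to 438), and cluster 4, led by Hp and Ly6c2, 404 CPM (385 to 423). Cluster 9, led by Chil3 and Spp1, was lower at 193 CPM (178 to 209.8). The injured cells of cluster 15, which carried all 13 monocyte and macrophage markers but stayed unnamed because 3 dendritic markers, Cd74, H2-Ab1 and H2-Aa, were among its 10 leading genes, had 410.0 CPM in 260 cells. In cluster 22, led by Retnla and Cd209f and filled by both libraries, Osm had 51.5 CPM in 46 injured cells (20 UMIs) and 15.3 CPM in 71 uninjured cells (4 UMIs), 3.37-fold higher (1.13 to 13.6). The difference was past 2-fold in this shared cluster as well, on few UMIs and at lower levels than in the other injured clusters.

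**Figure D2:**
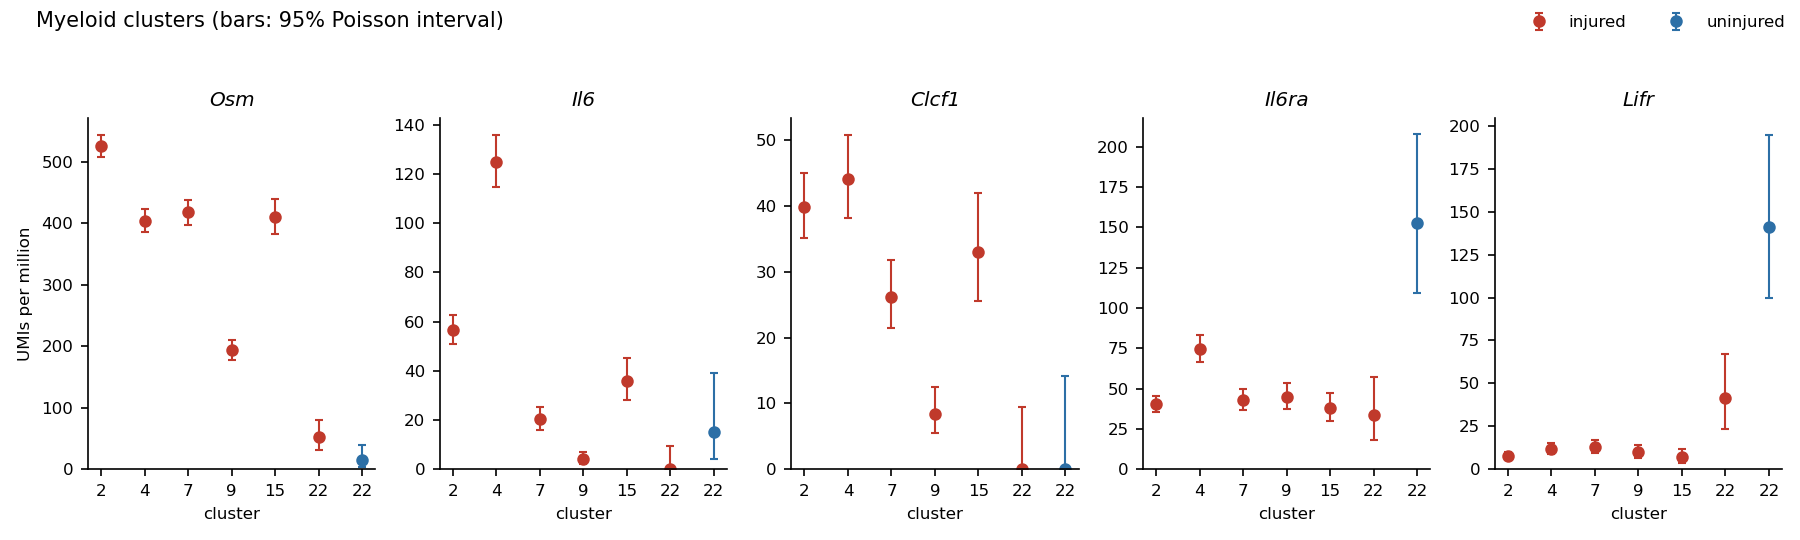
Level of 5 genes in CPM (vertical axes) in the monocyte and macrophage clusters and the unnamed cluster 15 (horizontal axes), with injured clusters in red, the uninjured part of cluster 22 in blue, and bars for 95% Poisson intervals. Osm peaks in cluster 2 at 525.5 and Il6 in cluster 4 at 125.0, while Il6ra and Lifr are highest in the uninjured cells of cluster 22 at 153 and 141.

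In endothelial-like and stromal cells Osm was low. The 27 injured erythroid-like cells held 43 Osm UMIs among 202287 UMIs of all genes, which is not a low level, and their source was not tested. Injured endothelial-like cells had 6.21 CPM (22 UMIs) and FAP-like cells 3.99 CPM (26 UMIs), against 0.222 CPM (2 UMIs) and 0 UMIs in uninjured cells of the same classes, which puts them past 2-fold (28.0-fold, 6.89 to 246, and at least 4.62-fold against a floor of 3 counts). Shares of cells with an Osm UMI were 3.55% and 5.65% in these injured classes. Beside them, the 13 monocyte and macrophage markers summed to 259 CPM in injured and 36.6 CPM in uninjured endothelial-like cells and to 235 and 60.7 CPM in FAP-like cells, with no marker at 0 in the injured classes and 2 at 0 in each uninjured class. The ratio of Osm to Lyz2 UMIs, Lyz2 being an abundant myeloid gene, was 2.58% in injured FAP-like, 2.64% in injured tenocyte-like, 4.20% in injured endothelial-like and 2.65% in injured monocyte- and macrophage-like cells. The endothelial ratio rests on 22 Osm UMIs, and the part of RNA from myeloid cells in the Osm of these classes was not tested.

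Il6, the founding member, an acute-phase cytokine, came from many classes. The injured library had 2112 UMIs (57.6 CPM) and the uninjured library 326 (15.9 CPM), 3.62-fold higher (3.22 to 4.08). FAP-like cells had 77.6 CPM (506 UMIs) in injured and 23.0 CPM (80 UMIs) in uninjured muscle, 3.37-fold higher (2.66 to 4.32). Tenocyte-like cells had 62.2 CPM (131 UMIs) in injured and 5.48 CPM (13 UMIs) in uninjured muscle, 11.3-fold higher (6.41 to 21.9). Pericyte- and smooth muscle-like cells, all in cluster 17, had 73.4 CPM (108 UMIs) and 19.1 CPM (8 UMIs), 3.84-fold higher (1.88 to 9.11). Their endothelial markers summed to 5109 CPM in the injured and 2356 CPM in the uninjured library, with none at 0. Markers of their own class summed to 5368 CPM in injured and 27347 CPM in uninjured cells. Cluster 18, led by Rgs5 and Kcnj8 (12 injured and 210 uninjured cells), was named mixed and left out of this class. The part of these differences in the ratio was not tested. In these stromal classes Il6 was thus several-fold higher in injured muscle. Il6 per Osm UMI was 19.5 in injured FAP-like, 16.4 in tenocyte-like and 18.0 in pericyte- and smooth muscle-like cells. The same ratio was 10.2 in injured endothelial-like and 0.136 in injured monocyte- and macrophage-like cells. The part of RNA from other cells in the Il6 of these classes was not tested.

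In endothelial-like cells Il6 had 63.5 CPM (225 UMIs) in injured and 16.8 CPM (152 UMIs) in uninjured muscle, 3.77-fold higher (3.06 to 4.66). Of these, 99 injured and 134 uninjured UMIs lay in cluster 11, led by Selp, Ackr1 and Vwf, genes known from venous endothelium. There it reached 200.3 CPM in 50 injured cells and 96.4 CPM in 343 uninjured cells, 2.08-fold higher (1.59 to 2.71). In uninjured muscle clusters 1 and 3, led by Car4 and Timp4 and by Timp4 and Aqp1, and cluster 8, led by Gkn3 and Sema3g, had 3.55 CPM or less, while the injured cluster 12 had 40.7 CPM (33.5 to 48.9). Monocyte- and macrophage-like cells stood at 55.6 CPM (1011 UMIs) in injured and 41.2 CPM (13 UMIs) in uninjured muscle, a ratio of 1.35 whose interval of 0.786 to 2.54 includes no difference. Among injured clusters it was 125.0 CPM in cluster 4, 56.4 in cluster 2, 20.3 in cluster 7 and 4.05 in cluster 9, and cluster 22 had 0 injured UMIs and 4 uninjured UMIs. Dendritic-like cells went the other way, with 16.7 CPM (33 UMIs) in injured and 61.7 CPM (17 UMIs, in 6 cells) in uninjured muscle, 3.70-fold lower (1.93 to 6.84). Their endothelial markers summed to 53.5 CPM in injured and 1672 CPM in uninjured cells, with none at 0. Their FAP markers summed to 265 and 740 CPM, and the part of either in this ratio was not tested.

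Il6 also sat in few cells at high counts. A UMI was found in 24.8% of injured and 4.38% of uninjured FAP-like cells, or 6.14% and 1.38% at 1000 UMIs per cell, and a single injured cell held 56 of the 506 UMIs. Among injured monocyte- and macrophage-like cells 312 of 2468 had an Il6 UMI, and 82.1% of those also had an Osm UMI, while 13.8% of cells with Osm had Il6. Glial-like cells had 0 Il6 UMIs in both libraries, in 63 injured and 249 uninjured cells, which by the floor of 3 counts allows a level of up to 6.90 CPM in injured and 4.25 CPM in uninjured cells.

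Lif, which encodes leukaemia inhibitory factor, and Il11, a cytokine of activated fibroblasts, had their largest shares of injured UMIs in FAP-like cells. Lif had 21.02 CPM (137 UMIs) in injured and 3.74 CPM (13 UMIs) in uninjured FAP-like cells, 5.62-fold higher (3.18 to 10.8), found in 15.7% and 1.38% of cells, or 1.97% and 0.50% after thinning. In monocyte- and macrophage-like cells it had 7.15 CPM (130 UMIs) against 3.17 CPM from 1 uninjured UMI, a ratio of 2.26 (0.398 to 89.8). Injured tenocyte-like cells had 15 Lif UMIs and uninjured ones 1, 16.9-fold (2.60 to 711), under the minimum of 20 UMIs. Il11 had 26.1 CPM (170 UMIs) in injured and 3.17 CPM (11 UMIs) in uninjured FAP-like cells, 8.24-fold higher (4.49 to 16.8), with 14.0% and 1.38% of cells, or 2.46% and 0.25% after thinning. A single FAP-like cell held 30 of the 170 injured UMIs. In injured glial-like cells Il11 had 66.7 CPM (29 UMIs), above the FAP-like level, against 1 uninjured UMI, but 25 of the 29 lay in 1 cell, and 3 of 63 cells had any.

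Clcf1 encodes cardiotrophin-like cytokine factor 1, which signals through the ciliary neurotrophic factor receptor. Monocyte- and macrophage-like cells had 32.0 CPM (582 UMIs) in injured muscle and 0 UMIs in uninjured muscle, at least 3.37-fold higher against a floor of 3 counts, though after thinning the log2 ratio against that floor was 0.00. FAP-like cells had 25.3 CPM (165 UMIs) in injured and 4.89 CPM (17 UMIs) in uninjured muscle, 5.18-fold higher (3.14 to 9.10). Tenocyte-like cells had 21.8 and 6.74 CPM (46 and 16 UMIs), 3.24-fold higher (1.80 to 6.13), and endothelial-like cells 5.644 and 2.105 CPM (20 and 19 UMIs), 2.68-fold higher (1.36 to 5.31). Injured glial-like cells had 46.0 CPM (20 UMIs in 15 cells) and uninjured ones 0 UMIs, at least 10.8-fold higher. Uninjured satellite cell-like cells had the highest Clcf1 level of the named classes with at least 50 cells, 76.7 CPM (61.6 to 94.4, 89 UMIs in 281 cells), but only 9 injured cells fell in that cluster, so no ratio was formed. Satellite cell markers summed to 1974 CPM in these uninjured cells. T cell markers summed to 289, NK cell markers to 243 and mast cell markers to 265 CPM, and their part in the Clcf1 level was not tested.

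The classes that held the ligand UMIs differed between the libraries. In the injured library 86.6% of Osm UMIs (85.8% to 87.3%) lay in monocyte- and macrophage-like cells and a further 9.69% in the unnamed clusters, nearly all in cluster 15. In the uninjured library 63.3% of the 30 Osm UMIs did (43.9% to 80.1%). Il6 UMIs of the injured library were split between monocyte- and macrophage-like cells (47.9%), FAP-like cells (24.0%) and endothelial-like cells (10.7%), while in the uninjured library they came from endothelial-like (46.6%), FAP-like (24.5%) and monocyte- and macrophage-like cells (3.99%). For Clcf1 the share of monocyte- and macrophage-like cells was 61.1% in the injured and that of satellite cell-like cells 55.6% in the uninjured library. Il11 UMIs lay in FAP-like cells at 71.1% (64.9% to 76.8%) in the injured and 34.4% (18.6% to 53.2%) in the uninjured library, where endothelial-like cells held 43.75% of the 32 UMIs. Lif was split between FAP-like (44.9%) and monocyte- and macrophage-like cells (42.6%) in the injured library, and FAP-like cells held 59.1% of the 22 uninjured UMIs. These shares follow the number of cells recovered of each class as well as the level per cell, and monocyte- and macrophage-like cells were 57.9% of the injured and 1.67% of the uninjured library.

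**Figure D3:**
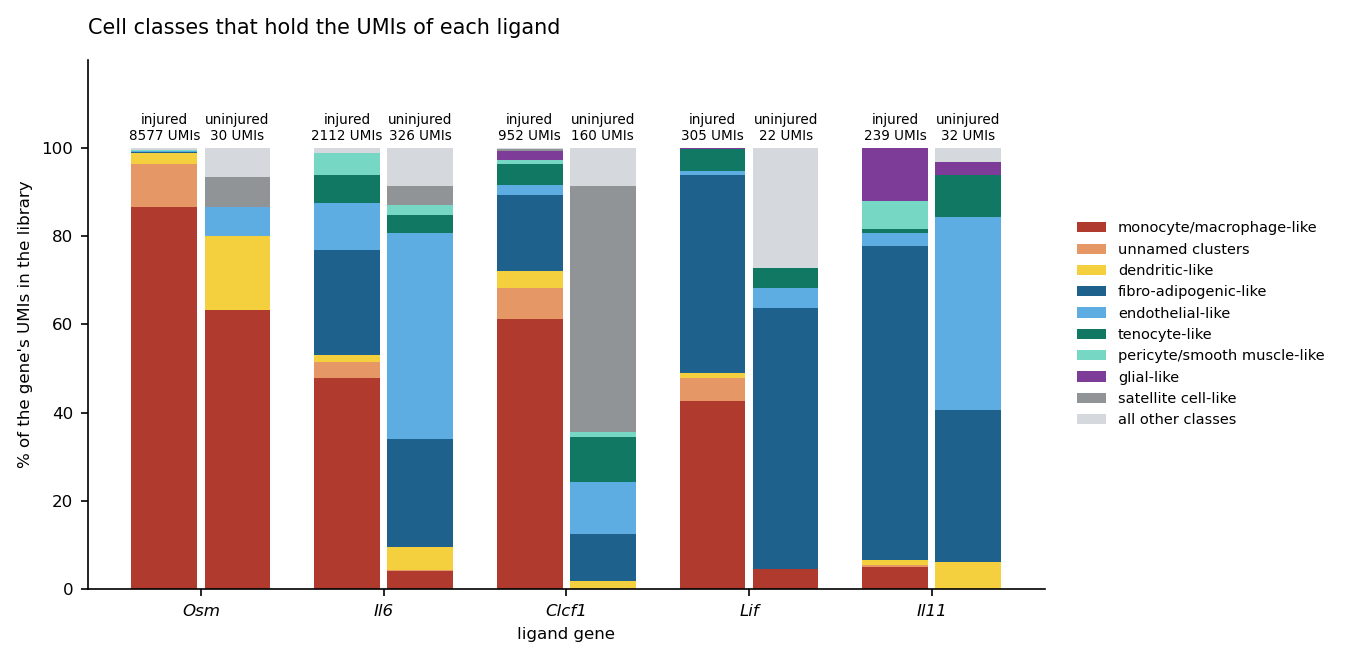
Share of each ligand gene's UMIs (vertical axis, percent of the library's UMIs of that gene) by cell class (colours), with the injured bar left of the uninjured bar for each gene (horizontal axis) and its UMI number above. Osm lies almost wholly in myeloid cells in the injured library (86.6% in monocyte- and macrophage-like cells), while Clcf1 lies mainly in satellite cell-like cells in the uninjured library (55.6%).

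Receptor genes had another layout. Il6st, the shared gp130 chain, was found in every class and was lower in injured endothelial-like cells, at 130.1 CPM (461 UMIs) against 278 CPM (2508 UMIs) in uninjured ones, 2.14-fold lower (1.93 to 2.36). In FAP-like cells it stood at 115 CPM in injured and 162 CPM in uninjured muscle, 1.41-fold lower (1.26 to 1.57), and in tenocyte-like cells at 113 and 109 CPM, a ratio of 1.03 (0.864 to 1.24). Il6st in monocyte- and macrophage-like cells was 16.8 CPM in injured and 9.51 CPM (3 UMIs) in uninjured muscle. Dendritic-like cells had 20.2 CPM (40 UMIs) and 54.4 CPM (15 UMIs), 2.70-fold lower (1.38 to 4.99), beside the shift in their endothelial markers given above. Myeloid cells were thus the classes with the lowest Il6st level of the 7 compared in the injured library.

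The endothelial level of Il6st differed between clusters. In cluster 11 it had 479.5 CPM in injured and 1192 CPM in uninjured cells, 2.49-fold lower (2.17 to 2.86), and was found in 92.0% and 97.1% of cells. The uninjured clusters 1, 3 and 8 had between 91.1 and 162 CPM, and the injured cluster 12 had 71.2 CPM (61.7 to 81.9). Lifr, the receptor chain for leukaemia inhibitory factor, followed the same division in uninjured muscle, with 401 CPM in cluster 11 against 79.0 to 94.6 CPM in clusters 1, 3 and 8.

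Lifr was the member that was lower in the most classes. Endothelial-like cells had 28.8 CPM (102 UMIs) in injured and 135 CPM (1220 UMIs) in uninjured muscle, 4.70-fold lower (3.83 to 5.80). Within cluster 11 it was 78.9 CPM in injured and 401 CPM in uninjured cells, 5.08-fold lower (3.67 to 7.22), so the difference was as large in a cluster that both libraries shared. Monocyte- and macrophage-like cells had 10.7 CPM (194 UMIs) in injured and 117 CPM (37 UMIs) in uninjured muscle, 11.0-fold lower (7.51 to 15.7). Within cluster 22 Lifr had 41.2 and 141 CPM (16 and 37 UMIs), 3.43-fold lower (1.86 to 6.61). These values stand beside the shifts in dendritic and endothelial markers of this class given above. FAP-like cells had 12.4 CPM in injured and 36.3 CPM in uninjured muscle, 2.92-fold lower (2.19 to 3.91). Dendritic-like cells had 17.2 and 61.7 CPM, 3.59-fold lower (1.88 to 6.61), again beside the shift in their endothelial markers. Glial-like cells had 13.8 and 75.1 CPM (6 and 53 UMIs), 5.44-fold lower (2.34 to 15.5). Within cluster 19 Lifr had 12.6 and 40.8 CPM (5 and 13 UMIs), 3.25-fold lower (1.09 to 11.6), under the minimum of 20 UMIs. Tenocyte-like cells at 16.1 and 25.7 CPM and pericyte- and smooth muscle-like cells at 25.8 and 47.8 CPM differed by less than 2-fold. Erythroid-like cells, which should lack Lifr, had 0 UMIs in 27 injured cells and 26.6 CPM (20 UMIs) in 17.3% of 81 uninjured cells. The uninjured erythroid-like cells also held endothelial markers at 6234 CPM, with none of 10 at 0, against 1225 CPM in uninjured tenocyte-like and 1129 CPM in uninjured FAP-like cells, and the part of these cells in the Lifr level was not tested.

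Osmr, the second chain of the oncostatin M receptor, was the receptor gene that was higher in an injured class. Tenocyte-like cells had 55.5 CPM (117 UMIs) in injured and 24.0 CPM (57 UMIs) in uninjured muscle, 2.31-fold higher (1.67 to 3.23), a log2 ratio of 1.21 that was 0.78 after thinning. FAP-like cells had 45.0 CPM (293 UMIs) and 31.1 CPM (108 UMIs), a ratio of 1.45 (1.16 to 1.82), and pericyte- and smooth muscle-like cells 53.0 and 45.5 CPM, a ratio of 1.17 (0.700 to 2.04). Endothelial-like cells had 44.0 CPM (156 UMIs) in injured and 86.3 CPM (779 UMIs) in uninjured muscle, 1.96-fold lower (1.65 to 2.34), just inside the 2-fold limit, and 1.66-fold lower (1.14 to 2.46) within cluster 11. Cluster 8 had the highest uninjured endothelial level at 156 CPM (137 to 176). Monocyte- and macrophage-like cells, which held most of the Osm UMIs, had 9 Osmr UMIs in 2468 injured cells (0.495 CPM) and 0 UMIs in 86 uninjured cells, so Osm and Osmr UMIs lay in different classes.

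Il6ra, the ligand-binding chain for interleukin 6, was chiefly myeloid in the classes compared. Monocyte- and macrophage-like cells had 49.8 CPM (905 UMIs) in injured and 136 CPM (43 UMIs) in uninjured muscle, 2.74-fold lower (1.97 to 3.72), and within cluster 22 33.5 and 153 CPM, 4.57-fold lower (2.39 to 9.31). Dendritic-like cells had 71.6 and 109 CPM, 1.52-fold lower (0.988 to 2.26). FAP-like cells had 12.4 CPM (81 UMIs) in injured and 29.6 CPM (103 UMIs) in uninjured muscle, 2.38-fold lower (1.77 to 3.23). Of those 103 UMIs 93 lay in cluster 16, led by Smpd3 and Mrgprg with Pi16 among its leading genes, at 87.2 CPM, while the uninjured cluster 5 had 4.67 CPM and the injured cluster 10 had 12.3 CPM (9.73 to 15.3). The FAP-like ratio thus depends on which uninjured cluster is set against cluster 10. Whole-library Il6ra was 2.18-fold higher (1.93 to 2.48), the opposite direction to that within monocyte- and macrophage-like cells. Those cells were 57.9% of the injured and 1.67% of the uninjured library, and the part of their number in the whole-library ratio was not tested.

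**Figure D4:**
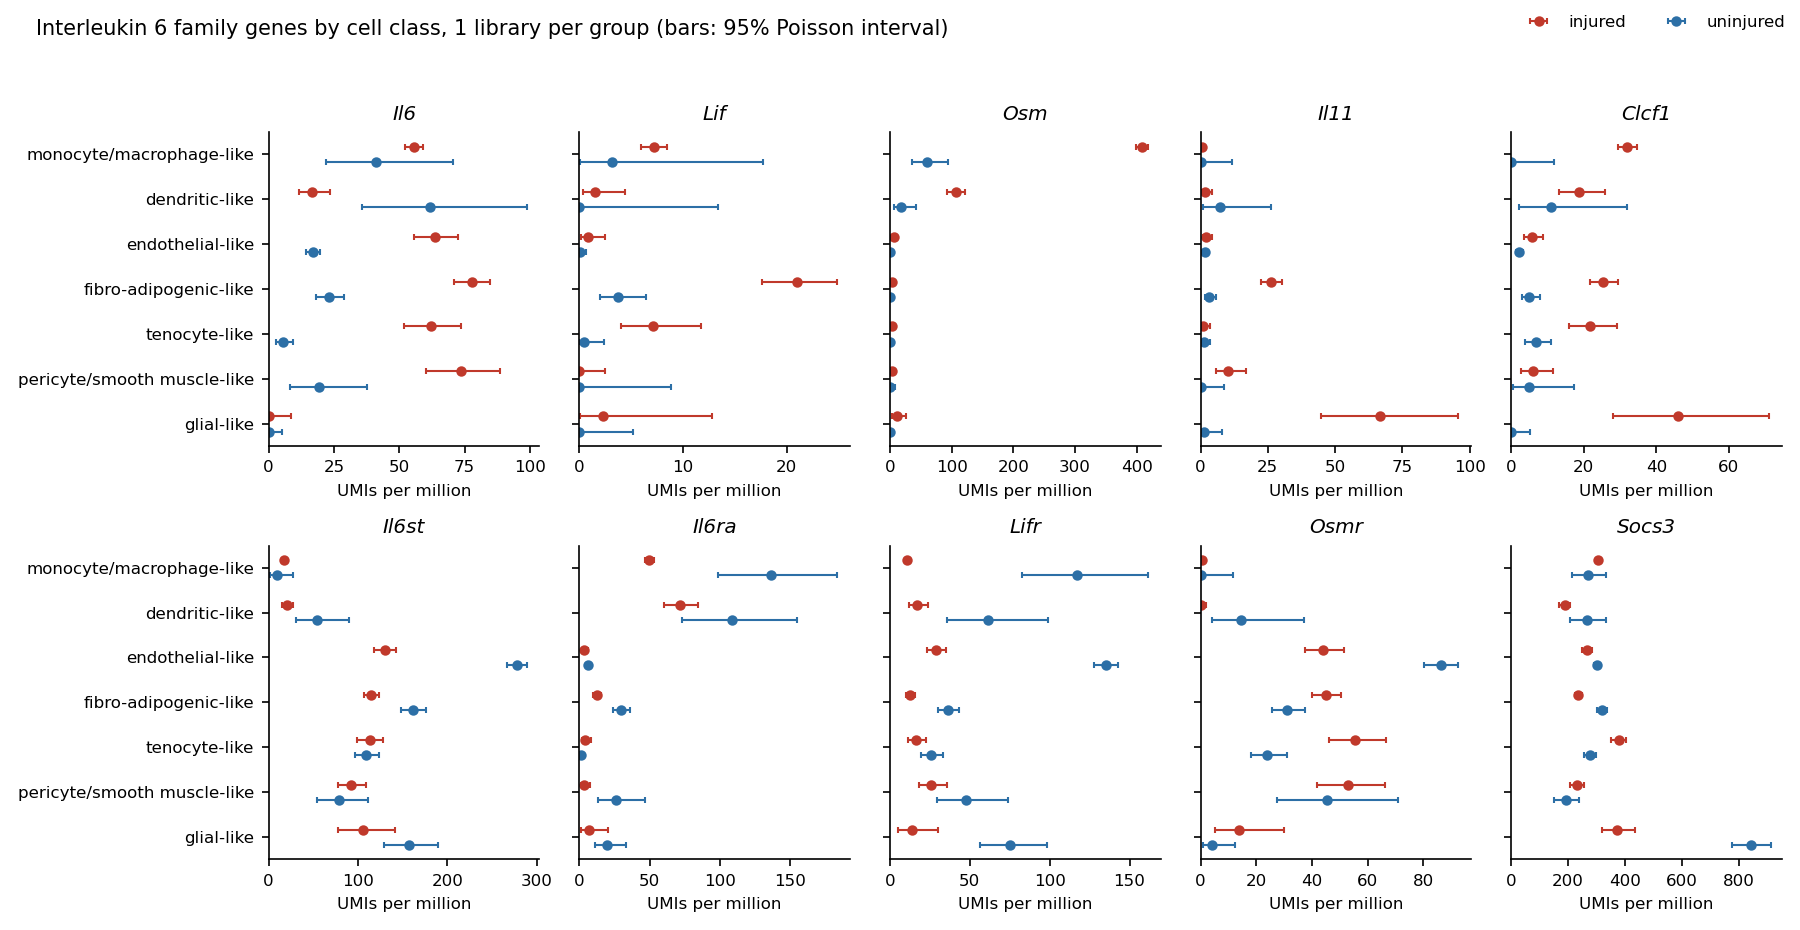
Level of the 10 genes in CPM (horizontal axes, each panel to its own scale from 0) in the 7 cell classes, with injured points in red above uninjured points in blue and bars for 95% Poisson intervals. Osm is high in injured monocyte- and macrophage-like cells at 408, and Il6st and Osmr are low in myeloid classes and present in stromal and endothelial ones.

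Both chains of the oncostatin M receptor were found together in stromal and endothelial cells. UMIs of both Il6st and Osmr were seen in 37.6% of injured and 6.00% of uninjured FAP-like cells, in 33.3% and 5.80% of tenocyte-like cells, in 26.9% and 5.71% of pericyte- and smooth muscle-like cells and in 13.5% and 10.6% of endothelial-like cells. These shares follow depth, with medians of 14108 UMIs in injured and 3951.5 UMIs in uninjured FAP-like cells: at 1000 UMIs per cell the FAP-like shares were 0.491% and 0.50%, and the endothelial-like shares 0.665% and 1.94%. Injured monocyte- and macrophage-like cells had both in 0.122% of cells. Il6st with Il6ra was found in 3.40% of injured and 2.33% of uninjured monocyte- and macrophage-like cells, and after thinning in 0 of 2468 injured cells (a limit of 0.122% by the floor of 3 counts) and in 1 of 86 uninjured cells (1.16%). At equal depth both Il6st and Osmr were seen in 2 injured and 4 uninjured FAP-like cells and in 1 injured and 0 uninjured tenocyte-like cells, too few to set the libraries apart.

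Socs3, the inhibitor that gp130 signalling induces, did not follow the ligands. It had 288 CPM (10566 UMIs) in the injured and 326 CPM (6687 UMIs) in the uninjured library, and its ratio was within 2-fold in 6 of 7 classes. In monocyte- and macrophage-like cells it had 305 CPM in injured and 269 CPM in uninjured muscle, a ratio of 1.13 (0.913 to 1.42). Tenocyte-like cells had 377 and 276 CPM, a ratio of 1.37 (1.23 to 1.52), endothelial-like cells 265 and 302 CPM, 1.14-fold lower (1.06 to 1.23), and FAP-like cells 236 and 319 CPM, 1.35-fold lower (1.25 to 1.46). Dendritic-like cells had 188 and 265 CPM, and pericyte- and smooth muscle-like cells 229.8 and 191 CPM. Glial-like cells had 373 CPM (162 UMIs) in injured and 843 CPM (595 UMIs) in uninjured muscle, 2.26-fold lower (1.90 to 2.71). Of the uninjured glial-like UMIs 415 lay in cluster 21, led by Col20a1 and Bche, at 1071 CPM. That cluster held 6 injured cells. Within cluster 19, which has Mbp among its leading genes, Socs3 had 337 CPM in 57 injured and 565 CPM in 106 uninjured cells, 1.68-fold lower (1.33 to 2.11), under the 2-fold limit. Il6st differed in direction between the glial-like class and this cluster, being 1.48-fold lower over the class and 1.97-fold higher (1.01 to 4.09) within cluster 19.

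The share of cells with a Socs3 UMI shows how depth enters. It was 74.4% in injured and 43.0% in uninjured monocyte- and macrophage-like cells and 79.4% and 41.9% in FAP-like cells. At 1000 UMIs per cell these were 23.6% and 22.1%, and 22.4% and 19.2%. Erythroid-like cells, the uninjured ones with endothelial markers at 6234 CPM, had a Socs3 UMI in 48.1% of 27 injured cells (218 CPM) and 24.7% of 81 uninjured cells (42.6 CPM), at median depths of 6829 and 5763 UMIs. Within uninjured endothelial-like cells the level was 436 CPM in cluster 1 and 43.6 CPM in cluster 3, which share leading genes, and Hspa1a, a heat shock gene, is among the leading genes of cluster 1. Dissociation of tissue is known to induce immediate early genes, and of 15 genes of that list 5 were at least 2-fold lower and 2 higher in injured monocyte- and macrophage-like cells, where 25.7% of all genes were lower. In endothelial-like cells 7 were lower (20.4% of all genes), in FAP-like cells 8 (29.0%), in glial-like cells 13 (26.9%), in dendritic-like cells 9 (11.7%), in tenocyte-like cells 2 (20.8%) and in pericyte- and smooth muscle-like cells 2 (13.0%). In these classes 1 was higher at most. The part of dissociation in the Socs3 level was not tested.

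**Figure D5:**
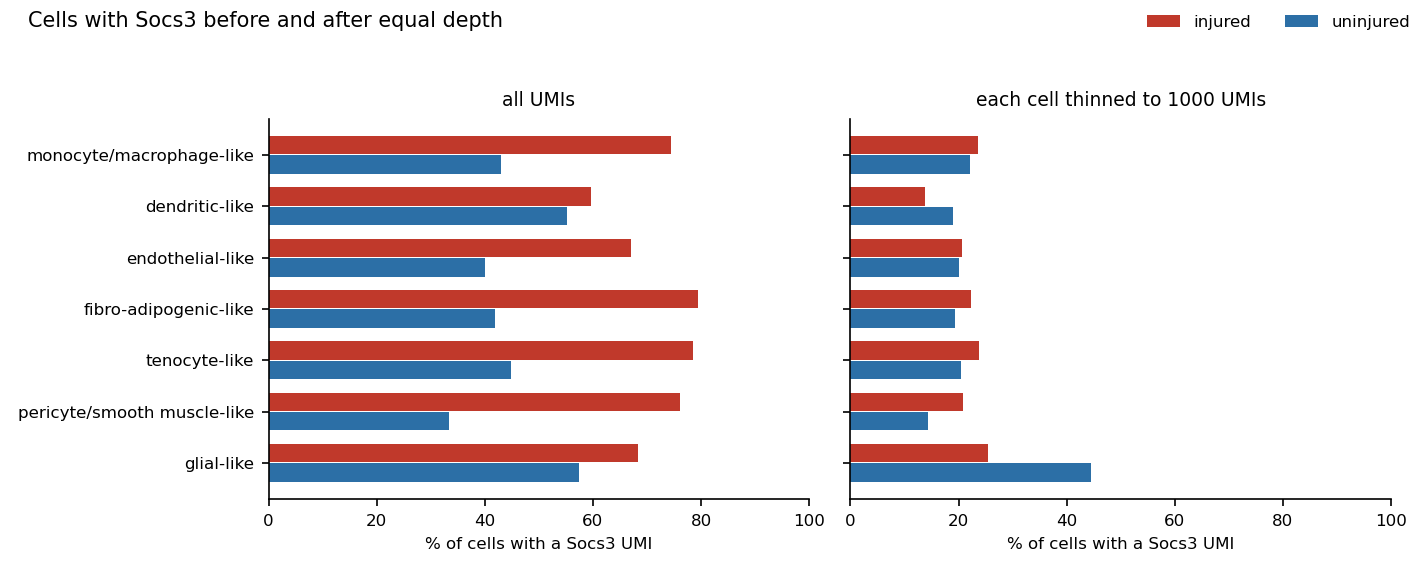
Percent of cells with at least 1 Socs3 UMI (horizontal axes) by cell class, injured bars in red above uninjured bars in blue, from all UMIs (left) and after thinning each cell to 1000 UMIs (right). The gap in monocyte- and macrophage-like cells, 74.4% against 43.0%, narrows to 23.6% against 22.1% at equal depth, and in glial-like cells the uninjured bar is the longer one after thinning.

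Other genes of the pathway were taken from lists. Of the other family ligands, reported here in part, Ctf1, cardiotrophin 1, was lower in injured tenocyte-like cells, with 4 injured and 24 uninjured UMIs, and Ebi3, a cytokine subunit, was lower in injured dendritic-like cells, with 26 injured and 9 uninjured UMIs (13.1 and 32.6 CPM). Of the other receptors, Il11ra1, the receptor for interleukin 11, was lower in injured FAP-like cells, at 249.8 against 642 CPM (log2 ratio -1.36), and in tenocyte-like cells, at 331 against 879 CPM (-1.41). Cntfr was lower in both, at 3.22 and 21.3 CPM in FAP-like and 21.8 and 73.8 CPM in tenocyte-like cells. Il11 and its receptor gene thus differed in opposite directions in FAP-like cells.

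Of 13 JAK and STAT transducer genes, 5 of 12 measured were lower and 0 higher in injured FAP-like cells, where 29.0% of all genes were lower, and 5 of 13 were lower and 0 higher in endothelial-like cells, where 20.4% were, Stat2 (11.6 and 27.8 CPM, -1.27) and Tyk2 (4.23 and 9.53 CPM, -1.17) among them. In monocyte- and macrophage-like cells 4 of 13 were lower (25.7% of all genes), Stat2 and Jak3 among them, and 1, the adaptor Gab1, was higher on 2 uninjured UMIs. In tenocyte-like (20.8% of all genes lower), dendritic-like (11.7%) and pericyte- and smooth muscle-like cells (13.0%) 1 was lower in each and 0 higher. In glial-like cells 4 of 7 were lower and 1 higher, against 26.9% and 13.0% of all genes. The median log2 ratio of the list was -0.25 in FAP-like, -0.52 in endothelial-like and -0.50 in monocyte- and macrophage-like cells, against medians of all genes of -0.29, -0.21 and -0.17. Among the other feedback inhibitors 2 of 9 were lower in FAP-like cells (Cish and Pias1), where 29.0% of all genes were. In endothelial-like cells 2 of 9 were lower (Socs1 at 14.7 and 53.2 CPM, and Socs2 at 64.3 and 143 CPM), where 20.4% of all genes were. In the other classes 0 to 3 of these inhibitors were higher and 0 to 2 lower. Over those classes 8.08% to 18.0% of all genes were higher and 11.7% to 26.9% lower. Of 4 genes for receptor shedding, the protease Adam17 was lower in injured FAP-like cells, at 14.6 against 50.7 CPM, where 29.0% of all genes were lower. In monocyte- and macrophage-like cells 1 was higher (Rhbdf2) and 1 lower (Rhbdf1), against 8.08% and 25.7% of all genes. The Rhbdf2 ratio of 2.03 (0.689 to 9.89) rested on 3 uninjured UMIs. Of 8 muscle fibre transcripts, counted as a sign of free RNA from fibres, all 8 were lower in injured monocyte- and macrophage-like, endothelial-like and FAP-like cells. There 25.7%, 20.4% and 29.0% of all genes were lower. In dendritic-like cells 0 of 7 were, against 11.7% of all genes. Over the whole injured library all 8 were lower too, against 38.7% of all genes, and these transcripts do not measure free RNA from other cells.

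Of the genes known as STAT3 targets in other settings, 9 of 17 measured were higher and 0 lower in tenocyte-like cells, with a median log2 ratio of 1.40, where 9.96% of all genes were higher. In endothelial-like cells 8 of 18 were higher and 2 lower (median 0.81, 10.6% of all genes higher), in FAP-like cells 7 of 20 and 3 (0.66, 14.9%), and in monocyte- and macrophage-like cells 8 of 20 and 3 (0.69, 8.08%). In pericyte- and smooth muscle-like cells 8 of 15 were higher and 1 lower (1.29, 18.0%), in dendritic-like cells 4 of 13 and 1 (0.39, 10.5%), and in glial-like cells 4 of 8 and 0 (0.81, 13.0%). Timp1, an inhibitor of matrix proteases, had 1249 CPM in injured and 30.8 CPM in uninjured FAP-like cells (5.34). Lcn2, an iron-binding acute-phase protein, had 303 and 7.17 CPM in tenocyte-like cells (5.40) and 36.4 and 1.55 CPM in endothelial-like cells (4.55). Saa3, another acute-phase gene, had 395 UMIs in injured and 0 in uninjured tenocyte-like cells. Fgl2 was lower in FAP-like cells (96.1 and 393 CPM) and endothelial-like cells (6.77 and 21.4 CPM). In monocyte- and macrophage-like cells Hif1a had 222 CPM in injured and 63.4 CPM in uninjured muscle (1.81), and the 3 genes called lower there each rested on 1 uninjured UMI. These genes have other inducers, and the part of this cytokine family in their level was not tested.

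The patterns most like 3 of the members were sought over 17 sums of class and library, among 10664 genes with at least 200 UMIs, by Pearson's r of log2(CPM + 10). Osm was most like Sirpb1c (r = 0.99), Gpr65 (0.99) and Gm6377 (0.98). Osmr was most like Lmf2 (0.92), Scrn2 (0.90) and Traf7 (0.87), and Socs3 most like Eif1 (0.89), Ubxn6 (0.87) and Luc7l3 (0.87). The points share their library and its depth, so r is a description only.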

How the data were processed

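The data are 2 droplet single-cell libraries, 1 injured and 1 uninjured. Per the submitters' processing notes, the authors used Cell Ranger 2.1.1 and mm10. The deposited matrices hold UMI counts per gene and barcode, not normalized. Barcodes with fewer than 200 genes (64 injured, 178 uninjured) or with mitochondrial UMIs above 20% (4 and 18) were removed. Scrublet's own threshold marked 1 barcode in each library, so the highest scores, 0.8% per 1000 barcodes, were removed as doublets (161 and 249). Counts were scaled to 10000 per cell, and 2000 variable genes, 30 components and 15 neighbours gave Leiden clusters at resolution 1 (scanpy 1.11.5, leidenalg 0.10.2, scipy 1.17.1, Python 3.11.15). A cluster was named from at least 3 markers of a type, by a rule set after the data had been seen. UMIs were summed per class and library. Intervals are exact (Poisson, Clopper-Pearson, conditional binomial) at 95% and cover counting error only. For log2 ratios a lower count under 3 was raised to 3. The 10 genes and all lists were chosen with earlier results of these data known. The genes named are the 10 members, up to 3 at each end of a list past 2-fold in each class, and the 3 most correlated with Osm, Osmr and Socs3. The ratio, its interval and the 2-fold call were run on simulated class sums with Poisson counting error. The simulation held no spread between cells, clusters or animals, so it does not bear on that spread. Alternatives numbered 12 planned and 1 added. Some genes of the lists are not reported here.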

Additional observations from a re-analysis of the deposited data

Results flagged for a closer look

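Il6 went in opposite directions in different classes of the same pair of libraries. Its log2 ratio of injured over uninjured was 1.91 in endothelial-like, 1.75 in FAP-like, 3.50 in tenocyte-like and 1.94 in pericyte- and smooth muscle-like cells, and -1.89 in dendritic-like cells. The difference between classes was not tested, since each group is 1 library. Endothelial markers in the dendritic-like cells summed to 53.5 CPM in injured and 1672 CPM in uninjured muscle, and their part was not tested.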

How the results depend on the processing

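Of the 28 pairs of gene and class past 2-fold, 23 stayed past it in each of the 13 settings that gave a value and 5 fell inside it in at least 1. These were Clcf1 in monocyte- and macrophage-like cells (lowest log2 ratio 0.00) and Osmr in tenocyte-like cells (0.78) when thinned, Il6ra in FAP-like cells (-0.83 when thinned), Il6st in endothelial-like cells (-0.89 after scaling by the median ratio) and Socs3 in glial-like cells, at -0.47 when cells were classed singly. Il6ra in FAP-like cells kept its call in 10 of 12 settings with a value, and Socs3 in glial-like cells in 6 of 10. Of the 22 others, 6 passed it in some setting. The share of injured Osm UMIs in monocyte- and macrophage-like cells, 86.6%, was 84.3% without doublet removal, 96.3% at resolution 0.5, 85.0% at resolution 2, 83.8% with each library clustered alone and 80.3% when cells were classed singly by marker score. Such classing put 50.2% of injured Il11 UMIs in FAP-like cells, in place of 71.1%. It also gave 2 members higher in dendritic-like, 2 lower in pericyte- and smooth muscle-like, and 1 higher and 1 lower in glial-like cells. Resolution 0.5 gave 2 lower in pericyte- and smooth muscle-like cells, and the mean over cells 1 lower in glial-like cells. Thinned to 1000 UMIs per cell, where only 2 to 7 members had enough UMIs, 1 was higher in monocyte- and macrophage-like, 1 in endothelial-like and 1 in FAP-like cells, 0 in tenocyte-like, pericyte- and smooth muscle-like and glial-like cells, and 1 was lower in dendritic-like, 1 in FAP-like and 0 in glial-like cells. Scaling by the median ratio left 1 lower in endothelial-like, FAP-like and glial-like cells, in place of 2, and gave 1 lower in pericyte- and smooth muscle-like cells, in place of 0. With a minimum of 1 UMI, 5 were lower in dendritic-like and 1 in pericyte- and smooth muscle-like cells, and 6 were higher in tenocyte-like and 4 in glial-like cells. The shares of all genes called under these other settings are not given, so these counts cannot be read against them. The median of muscle fibre transcripts in glial-like cells, -2.87, turned to 3.36 with each library clustered alone, and the cause was not tested. No value could be had for glial-like cells without cell filters, for dendritic-like cells with each library clustered alone, or for monocyte- and macrophage-like, dendritic-like, pericyte- and smooth muscle-like and glial-like cells when cells under the lowest injured UMI total were left out. No paired analysis was possible because each group is 1 library and no test was made.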
